A study of Mus musculus with 8 samples.

Results

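Whole retinas at E15 and E18 were compared gene by gene, with 1 RNA sequencing library for each age. Both libraries came from unsorted wild-type retinas of slc:ICR mice with no treatment, so every cell type of the tissue contributes to each value, and the number of retinas or embryos behind each library is not given in the sources used here. The series holds 8 libraries in all. From the others, the Cd73-positive (Cd73PC) and Cd73-negative (Cd73NC) cells sorted from pooled P2 retinas of the same strain are used as a further readout. Cd73 is a surface enzyme carried by rod precursors and mature rods. The gene lists were chosen with earlier results of these data known, so this readout is no independent check of them. Genes were taken from the deposited tables of 23021 rows when the row was no small RNA and its level was at least 1 FPKM (a level corrected for the length of the transcript and for the mapped reads of the library) at either age, and 12685 rows with 12617 gene symbols met this rule. A gene below 1 FPKM at 1 age entered only through its level at the other. List counts and medians below leave out members weak at both ages and so lean towards a difference. With 1 library at each age there is no replicate error and no test, and every difference below is between these 2 libraries.

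All neurons of the retina and its Müller glia arise from multipotent progenitors in an overlapping order. The embryonic mouse retina makes mainly retinal ganglion cells (RGCs), whose axons form the optic nerve, along with cones, horizontal cells and amacrine cells, and the bulk of its rods, bipolar cells and Müller glia comes later. Progenitors change over the same period, from an early state that expresses factors such as Fgf15 and Sfrp2 to a late state that shares many genes with Müller glia. The question put to the pair of libraries was which of these programs differed between the 2 embryonic ages.

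On the ratio of FPKM + 1, 963 rows (7.59% of 12685) were at least 1.5-fold higher at E18 and 449 rows (3.54%) were at least 1.5-fold higher at E15. The constant of 1 keeps weak genes from leading the list and understates their change. Most genes differed little, with a median log2 ratio (E18 over E15) of 0.04, quartiles of -0.14 and 0.24, and 5th and 95th percentiles of -0.49 and 0.73. Differences of at least 4-fold were counted in 50 rows in the direction of E18 and in 13 in the direction of E15. Cufflinks, the program that estimated the levels, gives a lower and an upper bound for each value that describe the estimate within a library, and these bounds were apart in 882 of the 963 rows and in 415 of the 449. The share of rows called higher at E18 was 29.7% where the mean level was up to 1 FPKM, 6.15% between 5 and 20 FPKM, and 2.68% above 100 FPKM. A row with a mean up to 1 FPKM was kept only if 1 age was at or above 1 FPKM and the other at or below it. The first of these shares is therefore partly set by the filter. Genes higher at E18 were weaker, with a median of 2.71 FPKM at E15 and 6.96 at E18, against 11.4 and 11.8 over all rows compared. The E15 library had 0.965 times the depth of the E18 library, as read from the steps of its weakest values, and the absolute depth is unknown.

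**Figure D1:**
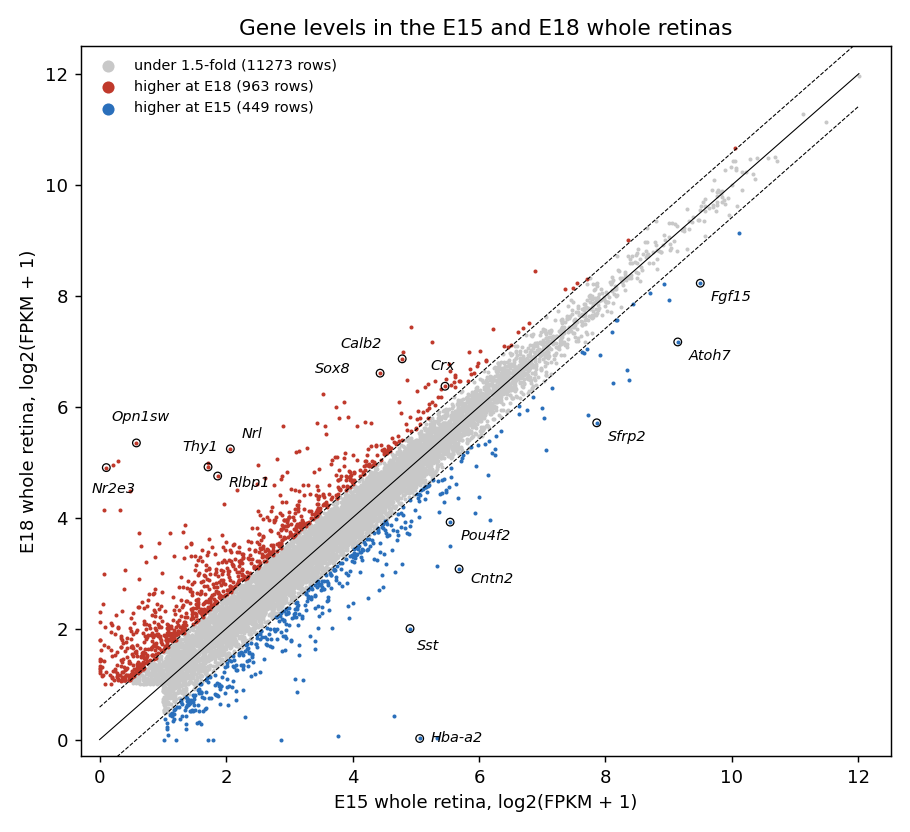
Each point is 1 of the 12685 rows compared, with its level at E15 on the horizontal and at E18 on the vertical axis, both as log2(FPKM + 1). The solid line marks equal levels and the dashed lines 1.5-fold, and the 963 red rows above and the 449 blue rows below them are few beside the grey body of rows along the line.

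Atoh7 and Crx served as markers of neurogenic progenitors and of photoreceptor precursors. Atoh7, the proneural factor required for RGC formation, is an intronless gene on chromosome 10 (chr10:62562904-62563353, NCBI37/mm9, plus strand), and its level was 564 FPKM at E15 and 143 FPKM at E18, or 3.93-fold lower at E18. Its log2 ratio was -1.97, and the opposite ends of the Cufflinks bounds placed it between -2.21 and -1.72. Both values lay above their own upper bounds of 338 and 90.8 FPKM, which was so for 1333 rows at E15 and 1449 at E18. Crx, the homeobox factor of photoreceptor precursors (chromosome 7, minus strand), was at 43.1 FPKM at E15 and 81.8 FPKM at E18, or 1.88-fold higher at E18. In unsorted tissue, fewer cells of a type and less RNA per cell cannot be told apart.

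RGC genes were mostly higher at E15. Of the 30 listed, all of which were compared, 20 were at least 1.5-fold higher at E15 and 3 at E18, with a median log2 ratio of -0.86. Over all rows the shares were 3.54% at E15 and 7.59% at E18. Among the transcription factors, Pou4f2, which drives RGC differentiation and axon growth, was at 45.6 FPKM at E15 and 14.1 at E18. Isl1, its partner, was at 69.7 and 26.4 FPKM, and Ebf3 was at 49.7 and 19.6 FPKM. Dlx1 and Dlx2, which act in the production of RGCs and other inner retinal neurons, were at 17.9 and 21.3 FPKM at E15 and at 4.85 and 5.74 FPKM at E18. By contrast, Pou4f1 was at 28.1 and 26.9 FPKM and Isl2 at 17.5 and 16.3 FPKM, so these RGC factors were under 1.5-fold.

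Several of the genes higher at E15 encode proteins of the axon and cytoskeleton. The growth cone protein Gap43 was at 512 FPKM at E15 and 241.0 at E18, neuronal tubulin Tubb3 at 1109 and 560.1 FPKM, and the neurofilament subunits Nefl and Nefm at 201 and 129.9 FPKM at E15 against 125 and 54.4 FPKM at E18. The RGC synuclein Sncg was at 485 and 295 FPKM. The widest gap of the list towards E15 was that of Cntn2 (TAG-1), an adhesion molecule of growing axons, at 50.4 FPKM at E15 and 7.44 FPKM at E18 (6.10-fold). The axonal adhesion molecule L1cam was under 1.5-fold, at 45.9 and 32.7 FPKM. The 3 genes in the opposite direction were Thy1, Pou4f3 and Nefh. Thy1, a surface protein of mature RGCs, was at 2.28 FPKM at E15 and 29.2 FPKM at E18 (9.20-fold), and it was at 0.580 FPKM in P2 Cd73NC and 0.214 FPKM in P2 Cd73PC. Pou4f3 was at 6.21 and 11.7 FPKM, and Nefh, the neurofilament subunit of mature axons, at 0.850 and 1.78 FPKM.

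**Figure D2:**
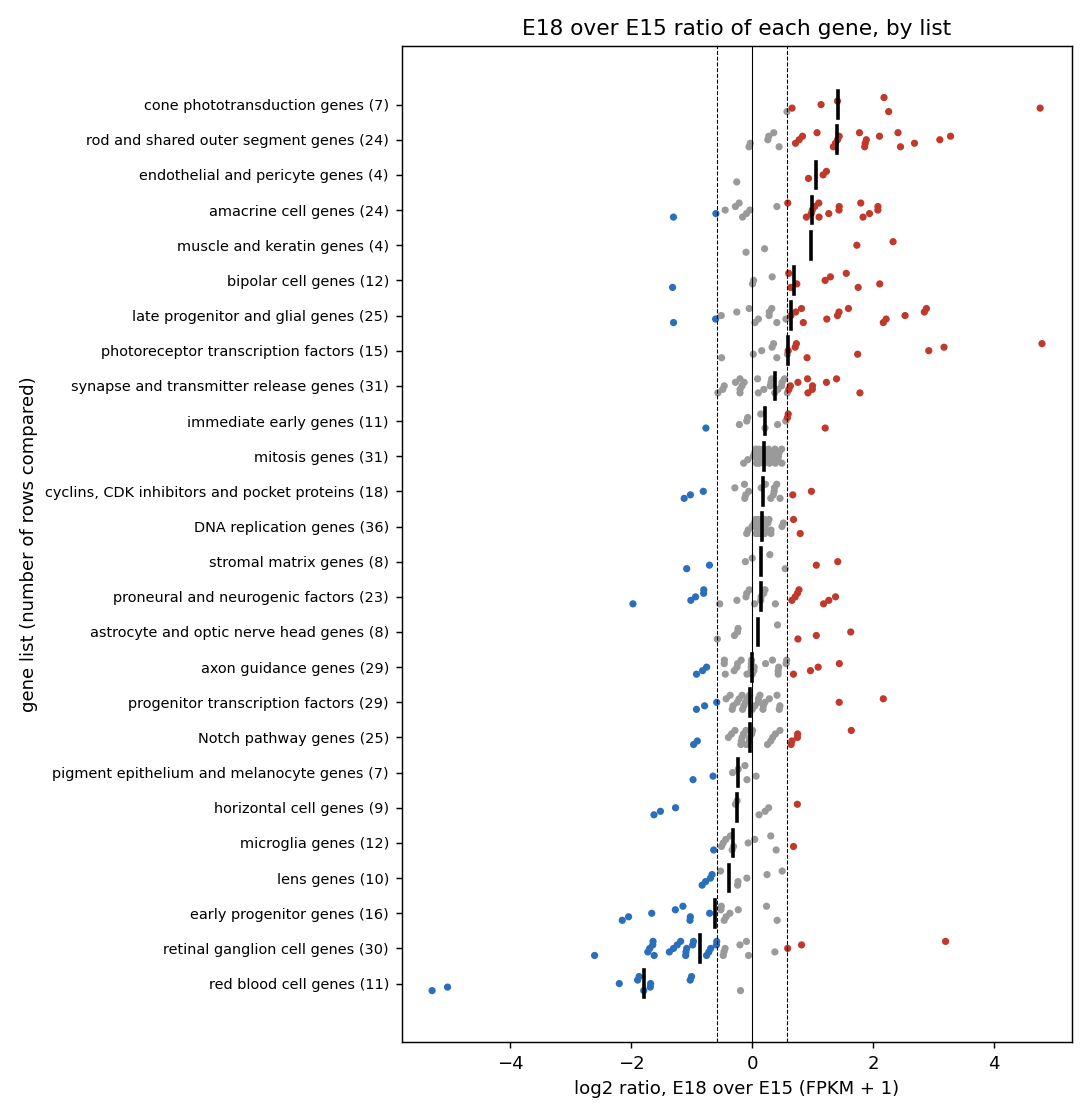
Each point is a gene compared, placed by its log2 ratio of E18 over E15 on FPKM + 1, in rows for the 26 gene lists, with the number of table rows compared in brackets. Black bars mark list medians and dashed lines 1.5-fold, and the medians run from -1.79 for red blood cell genes and -0.86 for RGC genes to 1.41 for cone phototransduction genes.

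Of 18 early progenitor genes listed, 16 were compared, of which 8 were at least 1.5-fold higher at E15, 0 at E18 and 8 in neither direction. The median log2 ratio was -0.61, and the shares over all rows were 3.54% at E15 and 7.59% at E18. Fgf15, a secreted growth factor of retinal progenitors, was at 723 FPKM at E15 and 299 at E18 (2.41-fold). The secreted Wnt modulator Sfrp2 was at 232 and 51.4 FPKM (4.44-fold), and Fgf3 at 45.6 and 10.3 FPKM (4.13-fold). The RNA-binding proteins Igf2bp1, Igf2bp2 and Igf2bp3, which stabilize growth-related transcripts in embryonic tissue, were at 21.5, 40.0 and 27.6 FPKM at E15 and at 9.17, 24.2 and 13.1 FPKM at E18. Pou2f2 was at 11.7 and 3.02 FPKM. Lin28b, an RNA-binding regulator of developmental timing, was weak at both ages, at 1.40 and 0.675 FPKM, and Lin28a was at 0.251 FPKM at E15 and was listed at 0 at E18. Crabp1, a retinoic acid binding protein, was at 85.4 and 101 FPKM.

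The factors that define retinal progenitors as such differed little in their median. Their median log2 ratio was -0.04, against 0.04 over all rows. Of 29 progenitor transcription factors compared, 24 were under 1.5-fold, against 11273 of the 12685 rows compared. By this count they were not more level than genes at large. Rax was at 226 FPKM at E15 and 233 at E18, Pax6 at 197 and 176 FPKM, and Lhx2 at 82.7 and 110.3 FPKM. The 2 factors higher at E18 were Sox8, at 20.6 and 96.5 FPKM, and Meis2, at 9.46 and 27.4 FPKM. The 3 higher at E15 included Vax2, a ventral patterning factor, with a log2 ratio of -0.59, and Tbx5, a dorsal one, at 4.15 and 1.98 FPKM.

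Cell cycle genes also differed little. Of 36 DNA replication genes, 2 were at least 1.5-fold higher at E18, namely the transcription factor E2f1 (33.5 and 58.9 FPKM) and the thymidine kinase Tk1 (22.6 and 36.9 FPKM), and 0 at E15. Of 31 mitosis genes, 0 passed 1.5-fold in either direction. Over all rows, 7.59% were called higher at E18 and 3.54% higher at E15. With lists of this size, the counts do not set cell cycle genes apart from genes at large. Most values nevertheless lay on the same side, since 33 of the 36 and 29 of the 31 were above a ratio of 1. Their medians were 0.16 and 0.20 in log2, against 0.04 for all rows. Both medians lay between the quartiles of all rows, -0.14 and 0.24, so the shift was small. Mki67, a protein of cycling cells, was at 56.4 FPKM at E15 and 60.9 at E18, Pcna, the replication clamp, at 233 and 289 FPKM, and Cdk1, the mitotic kinase, at 34.8 and 47.8 FPKM. Regulators of cycle exit were less uniform. Cdkn1c (p57), a CDK inhibitor of early cell cycle exit, was at 75.6 FPKM at E15 and 34.1 at E18, and the D cyclins Ccnd3 and Ccnd2 were at 61.0 and 7.50 FPKM at E15 and at 29.6 and 3.85 FPKM at E18. In the opposite direction, the CDK inhibitor Cdkn2c was at 9.71 and 20.1 FPKM and the pocket protein Rbl2 at 5.44 and 9.27 FPKM. Ccnd1, the main cyclin of retinal progenitors, was at 839 and 1084 FPKM.

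Proneural and neurogenic genes split in both directions. Of 23 compared, 7 were at least 1.5-fold higher at E18 and 5 at E15, against 7.59% and 3.54% of all rows. Neurod1 and Neurod4, which act in photoreceptor, amacrine and bipolar development, were at 68.3 and 36.1 FPKM at E15 and at 113 and 62.5 FPKM at E18. Hes6, a factor of newly formed neurons, was at 326 and 515 FPKM. Next to Atoh7, the genes higher at E15 were Gadd45a (127 and 62.3 FPKM), Penk, which encodes proenkephalin (log2 ratio of -0.94), Insm2 (9.63 and 5.09 FPKM) and Sox11 (76.5 and 43.5 FPKM). Neurog2 was at 94.6 and 79.3 FPKM. The ratios of Neurod1 and of Atoh7 therefore pointed in opposite directions, while Neurog2 stayed under 1.5-fold.

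The Notch pathway keeps neighbouring progenitors from differentiating together, and its genes had a median log2 ratio of -0.04 over 25 compared. The ligand Dll1 was at 19.9 FPKM at E15 and 34.2 at E18, whereas Dll4 was at 24.9 and 24.1 FPKM. The receptor Notch1 was at 46.4 and 57.7 FPKM, and Notch3, which is also a receptor of vessel mural cells, was at 12.8 and 6.05 FPKM. Of the effectors, Hes1 was at 60.4 and 58.6 FPKM, Hes5 at 115 and 158 FPKM, Hey2 at 2.24 and 9.09 FPKM, and Heyl at 14.6 and 25.2 FPKM. In all, 5 genes passed 1.5-fold in the direction of E18 and 2 in that of E15, against 7.59% and 3.54% of all rows. Among the 5, Dll1 and Hes6 are also counted with the proneural genes.

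**Figure D3:**
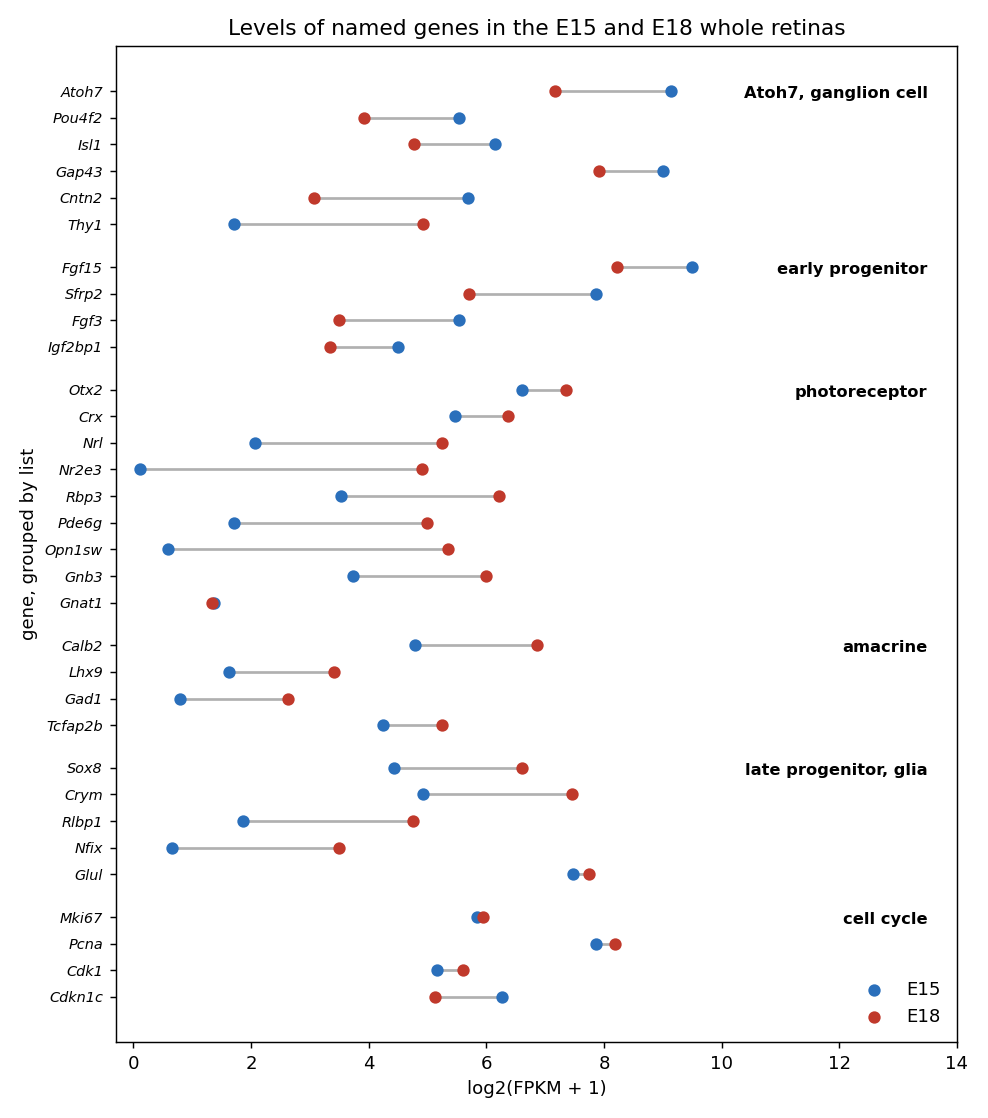
Levels of 32 genes at E15 (blue) and E18 (red) on a log2(FPKM + 1) axis, grouped by list, with a grey line joining the 2 libraries. Atoh7, early progenitor genes and most of the RGC genes drawn have the blue point to the right, amacrine, late progenitor and, other than Gnat1, photoreceptor genes have the red point to the right, and Mki67 has the points nearly on each other.

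Among the interneurons, amacrine genes were mostly higher at E18, while horizontal cell genes had no common direction. Of 9 horizontal cell genes compared, 3 were at least 1.5-fold higher at E15, 1 at E18 and 5 in neither direction. All rows compared had shares of 3.54% at E15 and 7.59% at E18. Their median log2 ratio was -0.25. Onecut1, Onecut2 and Onecut3, factors of horizontal cells and RGCs, were at 14.2, 7.90 and 4.47 FPKM at E15 and at 4.29, 1.89 and 1.27 FPKM at E18. The horizontal cell genes Prox1 (10.4 and 12.2 FPKM) and Lhx1 (1.08 and 1.25 FPKM) were under 1.5-fold, as was Foxn4 (73.7 and 61.9 FPKM), which acts in progenitors of horizontal and amacrine cells. Calb1, a calcium-binding protein of horizontal cells, was at 0.335 and 1.24 FPKM.

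Of 27 amacrine cell genes, 24 were compared, and 15 were at least 1.5-fold higher at E18 and 2 at E15, with a median log2 ratio of 0.99. Shares over all rows were 7.59% and 3.54%. Gad1 and Slc18a3, below 1 FPKM at E15, entered only through their level at E18. Calb2 (calretinin), a calcium-binding protein of amacrine cells and RGCs, was at 26.6 FPKM at E15 and 116 at E18 (4.23-fold). The GABA synthesizing enzymes Gad1 and Gad2 were at 0.725 and 5.67 FPKM at E15 against 5.16 and 9.04 FPKM at E18, and the vesicular transporter Slc32a1 at 4.85 and 9.90 FPKM. The glycine transporter Slc6a9 was at 2.32 and 5.54 FPKM, but at P2 it was higher in Cd73PC (47.9 FPKM) than in Cd73NC (6.56 FPKM). Transcription factors of amacrine cells followed, with Tcfap2b at 18.0 and 36.9 FPKM, Tcfap2a at 7.76 and 17.8 FPKM, Lhx9 at 2.07 and 9.67 FPKM and Bhlhe22 at 6.98 and 16.2 FPKM. Factors that act at the start of the lineage did not pass 1.5-fold, with Ptf1a at 16.1 and 13.1 FPKM, Barhl2 at 17.6 and 17.1 FPKM and Prdm13 at 23.4 and 21.9 FPKM. The vesicular acetylcholine transporter Slc18a3, a gene of starburst amacrine cells, was at 0.0620 and 3.08 FPKM, while Chat, which shares its locus, was listed at 0 at E15 and was at 0.254 FPKM at E18.

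Photoreceptor genes were mostly higher at E18. Of 15 photoreceptor transcription factors compared, 8 were at least 1.5-fold higher at E18 and 0 at E15, against 7.59% and 3.54% of all rows. Nr2e3, a nuclear receptor that represses cone genes in rods, was at 0.0763 FPKM at E15 and 28.9 FPKM at E18 (27.8-fold), and Nrl, which directs precursors to the rod fate, was at 3.19 and 36.9 FPKM (9.04-fold). Samd7, a rod regulator of the Polycomb type, was at 0.0491 and 6.96 FPKM. Factors that act upstream were already expressed at E15 and differed less, with Otx2 at 97.0 and 162 FPKM and Prdm1, which holds precursors to the photoreceptor fate, at 22.8 and 30.6 FPKM. The cone regulators were under 1.5-fold, with Rxrg at 13.1 and 14.7 FPKM and Thrb, the thyroid hormone receptor of cones, at 16.7 and 11.4 FPKM, a log2 ratio of -0.51.

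Of the 36 rows of rod and shared outer segment genes, 24 were compared and the other 12 were below 1 FPKM at both ages. At least 1.5-fold higher at E18 were 18, at E15 0, against 7.59% and 3.54% of all rows, with a median log2 ratio of 1.40. Some of the 18, such as Prph2 and Nt5e, were below 1 FPKM at E15 and entered only through their level at E18. The 12 rows weak at both ages are outside this count and median. Pde6g, the inhibitory subunit of the rod phosphodiesterase, was at 2.26 and 30.8 FPKM (9.74-fold). The disc rim proteins Prph2 and Rom1 were at 0.536 and 4.66 FPKM at E15 and at 12.2 and 30.1 FPKM at E18. The retinoid binding protein of the interphotoreceptor matrix, Rbp3, was at 10.6 and 73.7 FPKM, the phosducin gene Pdc at 14.3 and 55.6 FPKM, and arrestin Sag at 1.58 and 10.1 FPKM. Nt5e, which encodes Cd73 itself, was at 0.447 and 2.76 FPKM. Genes of the mature rod cascade were still near the lower limit, with rod transducin Gnat1 at 1.57 and 1.52 FPKM, and Pde6a and Cnga1 below 1 FPKM at both ages. The steps of the cascade were thus unequal, since Pde6g passed 1.5-fold and Gnat1 did not.

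Of 12 cone phototransduction genes, 7 were compared and 6 were at least 1.5-fold higher at E18, against 7.59% of all rows. The short wavelength opsin gene Opn1sw was at 0.497 FPKM at E15 and 39.8 FPKM at E18 (27.2-fold). Cone transducin subunits were present earlier, with Gnb3 at 12.4 and 63.0 FPKM, Gngt2 at 26.8 and 125 FPKM, and Gnat2 at 6.35 and 18.6 FPKM. The cone channel subunits Cngb3 and Cnga3 were at 1.76 and 1.42 FPKM at E15 and at 5.10 and 2.82 FPKM at E18. The middle wavelength opsin gene Opn1mw was at 0.135 and 0.0651 FPKM, and cone arrestin Arr3 was listed at 0 at E15 and was at 0.172 FPKM at E18.

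Crx and Otx2 bind the letters TAATCC, and promoter sequences were taken from RefSeq (GRCm38.p6, 250 bases before to 50 after a gene's start) to show where these letters stand in photoreceptor genes higher at E18. Of the 32 such genes, 25 (78.1%) had an entry, with 32 promoters, and TAATCC stood on either strand in 10 of them (31.2%), against 7.06% of all 32841 promoters searched. Because fewer than 80% of the genes had an entry, this share describes the promoters at hand and is void as a check of the group. Of the other motifs searched on both strands, CAGCTG (an E-box) stood in 28.1% of the 32 and 16.3% of all, CCAAT (the NF-Y box) in 43.8% and 37.4%, and TTTGAA (the CHR element of cell cycle genes) in 9.38% and 17.9%, and neighbouring motifs could share bases. Among the 12803 promoters found for 9939 of the 12617 genes compared, the shares were 5.58% for TAATCC, 15.3% for CAGCTG, 38.1% for CCAAT and 11.5% for TTTGAA. Crx is shown as the marker of these cells, Samd7 as a rod regulator and Rbp3 as a matrix gene, and capitals mark TAATCC or its reverse complement GGATTA. They lie at chr7:15879906-15880205 (minus strand), chr3:30746043-30746342 (plus strand) and chr14:33953753-33954052 (plus strand) of GRCm38.p6.
Crx: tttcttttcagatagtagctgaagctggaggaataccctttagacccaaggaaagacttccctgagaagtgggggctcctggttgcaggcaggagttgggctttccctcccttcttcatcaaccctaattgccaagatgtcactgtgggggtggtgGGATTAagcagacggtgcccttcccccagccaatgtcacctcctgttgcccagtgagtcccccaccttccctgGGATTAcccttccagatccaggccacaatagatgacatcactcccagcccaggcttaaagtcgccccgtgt
Samd7: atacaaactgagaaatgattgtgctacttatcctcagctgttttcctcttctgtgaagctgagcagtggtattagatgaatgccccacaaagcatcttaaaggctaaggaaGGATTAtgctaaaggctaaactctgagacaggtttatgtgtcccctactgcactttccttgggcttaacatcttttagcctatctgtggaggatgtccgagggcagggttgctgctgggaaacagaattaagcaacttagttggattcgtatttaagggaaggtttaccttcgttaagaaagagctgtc
Rbp3: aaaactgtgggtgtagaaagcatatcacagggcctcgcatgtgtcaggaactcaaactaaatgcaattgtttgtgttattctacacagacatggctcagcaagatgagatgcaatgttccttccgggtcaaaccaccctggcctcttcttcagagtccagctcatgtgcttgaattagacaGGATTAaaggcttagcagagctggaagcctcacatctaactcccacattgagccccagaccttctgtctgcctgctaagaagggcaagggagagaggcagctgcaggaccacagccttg
Crx held the letters at 2 places and the others at 1, and their levels at the 2 ages were 43.1 and 81.8 FPKM for Crx, 0.0491 and 6.96 FPKM for Samd7, and 10.6 and 73.7 FPKM for Rbp3.

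Bipolar genes, a late-born program, were weak at both ages. Of 19 listed, 12 were compared, and 8 were at least 1.5-fold higher at E18 and 1 at E15, against 7.59% and 3.54% of all rows. Irx5 and Prdm8, transcription factors of bipolar subtypes, were at 8.79 and 3.50 FPKM at E15 and at 23.0 and 9.39 FPKM at E18, and the calcium-binding protein Cabp5 was at 0.136 and 2.83 FPKM. The defining genes Vsx1 and Grm6 stayed below 0.1 FPKM at both ages. Trpm1, the channel of ON bipolar cells, which pigment cells also express, was at 2.03 and 0.218 FPKM.

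Of 25 late progenitor and glial genes compared, 13 were at least 1.5-fold higher at E18, 2 at E15 and 10 in neither direction. Their median log2 ratio was 0.64, and the shares over all rows were 7.59% at E18 and 3.54% at E15. Rlbp1, a retinaldehyde binding protein of Müller glia, was at 2.65 FPKM at E15 and 25.9 FPKM at E18 (7.39-fold). The nuclear factor I genes, which act in late progenitors, were graded, with Nfix at 0.568 and 10.3 FPKM (7.21-fold), Nfib at 2.59 and 7.46 FPKM, Nfia at 1.62 and 3.62 FPKM, and Nfic at 4.78 and 6.67 FPKM. Crym was at 29.2 and 174 FPKM, the carbonic anhydrase Car2 had a log2 ratio of 2.22, and Hopx was at 15.8 and 49.6 FPKM. Glul, the glutamine synthetase of Müller glia, was at 176 and 214 FPKM, and Sox9 at 32.1 and 34.6 FPKM. The filament protein Vim (285 and 187 FPKM) and carbonic anhydrase Car14 (11.4 and 4.03 FPKM) were higher at E15.

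Synapse and transmitter release genes were higher at E18 or under 1.5-fold. Of 31 synapse and transmitter release genes compared, 10 were at least 1.5-fold higher at E18 and 0 at E15. Shares over all rows were 7.59% and 3.54%. The vesicular glutamate transporter of photoreceptors and bipolar cells, Slc17a7, was at 0.526 and 4.26 FPKM, while that of RGCs, Slc17a6, was at 9.69 and 8.30 FPKM. The ribbon synapse genes Cplx3 and Stx3 were at 4.98 and 5.90 FPKM at E15 and at 14.8 and 15.2 FPKM at E18, and the general vesicle gene Syp was at 48.2 and 92.4 FPKM. Of 29 axon guidance genes compared, 4 were at least 1.5-fold higher at E18 and 3 at E15. Counts this small do not set the list apart from all rows. Dcc, a receptor for netrin, was at 15.2 and 8.20 FPKM, and netrin itself, Ntn1, was at 1.71 and 0.431 FPKM. Ephb1, a receptor of RGC axons that do not cross at the chiasm, was at 11.6 and 19.3 FPKM, and Robo3 was at 1.96 and 7.05 FPKM.

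Markers of cells from outside the neural retina were checked in the same way, beside shares over all rows of 7.59% higher at E18 and 3.54% at E15. Red blood cell genes were lower at E18, with a summed level of 1264 FPKM at E15 and 343 at E18 over 17 rows, 10 of 11 compared rows higher at E15 and 0 higher at E18. The globin row Hbb-b2 was at 211 and 57.0 FPKM and Beta-s at 331 and 88.1 FPKM, and the 2 rows of Hba-a2 were at 39.2 and 32.4 FPKM at E15 and at 0.0221 and 0.0139 FPKM at E18. Near-identical globin copies share reads, so the value of any single copy is uncertain. The embryonic globins Hbb-y and Hba-x were at 2.47 and 1.03 FPKM at E15 and were listed at 0 at E18. Of 21 endothelial and pericyte genes, 17 were below 1 FPKM at both ages, and the defining markers Pecam1 (0.428 and 0.217 FPKM) and Cdh5 (0.381 and 0.385 FPKM) were among them. Of the 4 compared, 3 were higher at E18, and of these Kdr, which retinal neurons and progenitors also express, was at 38.4 and 87.9 FPKM. Summed levels of the other lists were 26.0 and 23.7 FPKM for 15 microglia genes (12 compared, 1 higher at each age), 26.3 and 20.9 FPKM for 25 lens genes (10 compared, 4 higher at E15, 0 of these with bounds apart), 78.9 and 54.0 FPKM for 17 pigment epithelium genes (7 compared, 2 higher at E15), and 96.9 and 139.5 FPKM for 21 stromal matrix genes (8 compared, 2 higher at each age), the last led at E18 by Col2a1 (18.6 and 51.4 FPKM). Col1a1 and Dcn, the defining stromal genes, were below 1 FPKM at both ages, and Rpe65 was listed at 0 at E15 and was at 0.0403 FPKM at E18. Of 8 astrocyte genes compared, 3 were higher at E18, with Gfap at 0.0545 and 2.27 FPKM and Pdgfra at 0.958 and 3.09 FPKM, and Pax2, the defining marker of optic nerve head astrocytes, was at 2.06 and 1.05 FPKM. Of the 4 muscle and keratin genes compared, 2 were higher at E18, and of the 11 immediate early genes compared, 3 were higher at E18 and 1 at E15. The part of blood and of these other cells in the remaining differences was not tested.

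Some of the widest gaps lay outside these lists. Pcp4, a calmodulin-binding peptide of neurons, was at 0.156 FPKM at E15 and 29.9 FPKM at E18 (26.7-fold), and it was at 0.953 FPKM in P2 Cd73NC and 0.747 FPKM in P2 Cd73PC. The neuropeptide gene Npy was at 0.400 and 21.4 FPKM, and Plekhb1, a gene of photoreceptors, at 6.49 and 49.3 FPKM (6.71-fold). The rows 1700027L20Rik and BC048943, which have no established function here, were at 0.229 and 0.245 FPKM at E15 and at 31.5 and 16.6 FPKM at E18. Pisd-ps1, a pseudogene that can share reads with its parent gene, was at 0.0506 and 16.6 FPKM. In the direction of E15, the neuropeptide gene Sst was at 29.0 FPKM at E15 and 7.50-fold lower at E18, Igfbpl1, a growth factor binding protein of developing neurons, was at 71.4 and 14.6 FPKM (4.64-fold), and the connexin Gja1 at 8.24 and 1.12 FPKM. Lypd1 was at 7.48 and 1.14 FPKM, and the rows Gm6537 and 1700106J16Rik were at 7.69 and 3.91 FPKM at E15 and at 0.805 and 0.326 FPKM at E18. The most abundant transcripts were nearly level, with the elongation factor Eef1a1 at 4117 and 4011 FPKM. Of the 10 highest rows at each age, only Ckb, brain creatine kinase, passed 1.5-fold, at 1062 and 1627 FPKM.

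The P2 fractions, which share no library with the 2 embryonic ages, show in which sorted cells these genes were later found. Over the 12679 rows with a P2 value, 1583 (12.5%) were at least 1.5-fold higher in Cd73PC and 3080 (24.3%) in Cd73NC. Of 962 rows higher at E18, 310 (32.2%) were higher in P2 Cd73PC, 358 (37.2%) in P2 Cd73NC, and 294 in neither. Of 449 rows higher at E15, 40 (8.91%) were higher in P2 Cd73PC, 165 (36.7%) in P2 Cd73NC, and 244 in neither. The share in Cd73PC was above that over all rows for genes higher at E18 and below it for genes higher at E15, and the share in Cd73NC was above it for both classes. These shares were not tested, and the 2 classes differ in level from the remaining genes.

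By list, all 18 rod and shared outer segment genes higher at E18 were higher in P2 Cd73PC, as were 7 of the 8 photoreceptor factors and 5 of the 6 cone genes. Among all compared rows of these lists, 23 of 24, 11 of 15 and 5 of 7 were higher in P2 Cd73PC. The 18 and the 23 include Nt5e, which encodes the sort marker Cd73, so the side of Nt5e at P2 was set by the sort. Of the 15 amacrine genes higher at E18, 13 were higher in P2 Cd73NC and 1, Slc6a9, in P2 Cd73PC. Of the 13 late progenitor and glial genes, 11 were higher in P2 Cd73NC. Among all compared genes of these lists, 20 of 24 and 20 of 25 were higher in P2 Cd73NC. For the rod, amacrine and glial lists, the side at P2 was thus that of most of the list. Of the 8 bipolar genes higher at E18, 4 were higher in P2 Cd73PC, among them Cabp5 (1.39 FPKM in Cd73NC and 5.66 in Cd73PC), and 2 in P2 Cd73NC. Among the 12 bipolar genes compared, 6 were higher in P2 Cd73PC and 3 in P2 Cd73NC. Of the 20 RGC genes higher at E15, 13 were higher in P2 Cd73NC and 0 in P2 Cd73PC. Among all 30 RGC genes, 15 were higher in P2 Cd73NC and 2 in P2 Cd73PC. Some were very weak in both fractions, such as Pou4f2 at 0.391 FPKM in Cd73NC and 0.143 FPKM in Cd73PC. Ratios on FPKM + 1 understate such differences. Nr2e3 was at 7.63 FPKM in P2 Cd73NC and 950 in P2 Cd73PC, and Crym was at 338 and 94.0 FPKM in the same order. Thy1, at 0.580 and 0.214 FPKM, stood for a smaller set, high at E18 and weak in both fractions. Gja1, higher at E15, was at 1.13 FPKM in P2 Cd73NC and 4.19 FPKM in P2 Cd73PC.

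**Figure D4:**
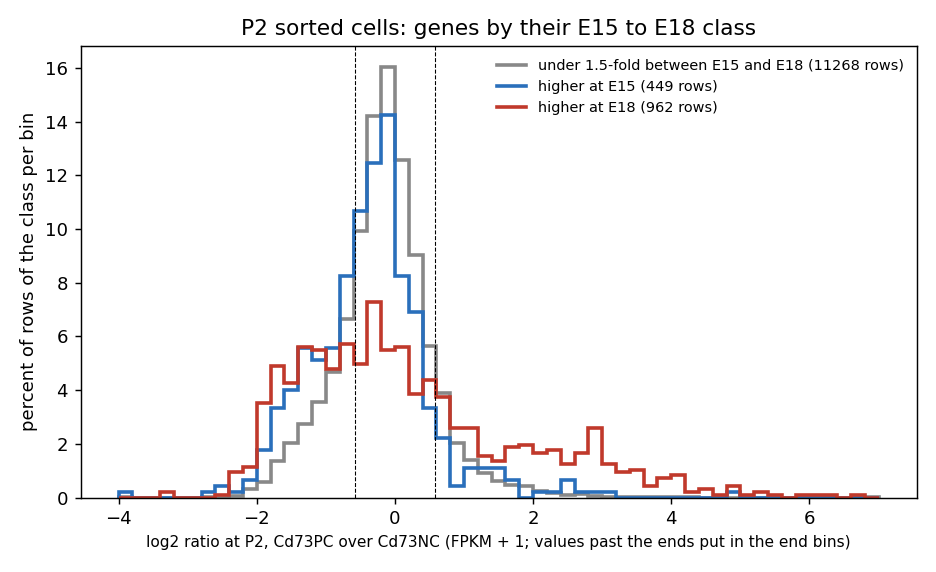
Distribution of the P2 log2 ratio of Cd73PC over Cd73NC on FPKM + 1, as the percent of rows of each class per bin, for rows higher at E18 (red, 962 rows), higher at E15 (blue, 449 rows) and under 1.5-fold between the ages (grey, 11268 rows). Dashed lines mark 1.5-fold, and 32.2% of the red rows lie right of them against 8.91% of the blue rows.

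Followed over all libraries, the genes named above took several courses. Atoh7 was at 116 FPKM in P2 Cd73NC and 20.9 FPKM in P2 Cd73PC, after 564 and 143 FPKM in the embryonic retinas. Pou4f2 was below 0.5 FPKM in both P2 fractions, after 45.6 and 14.1 FPKM. Sox8 was at 106 FPKM in P2 Cd73NC and 25.9 FPKM in P2 Cd73PC, after 20.6 and 96.5 FPKM. Crx was at 102 FPKM in P2 Cd73NC and 660.0 FPKM in P2 Cd73PC, and Opn1sw at 26.2 and 86.3 FPKM in the same order. Sorted and unsorted libraries hold different mixtures of cells, so these levels are given side by side as a description only.

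**Figure D5:**
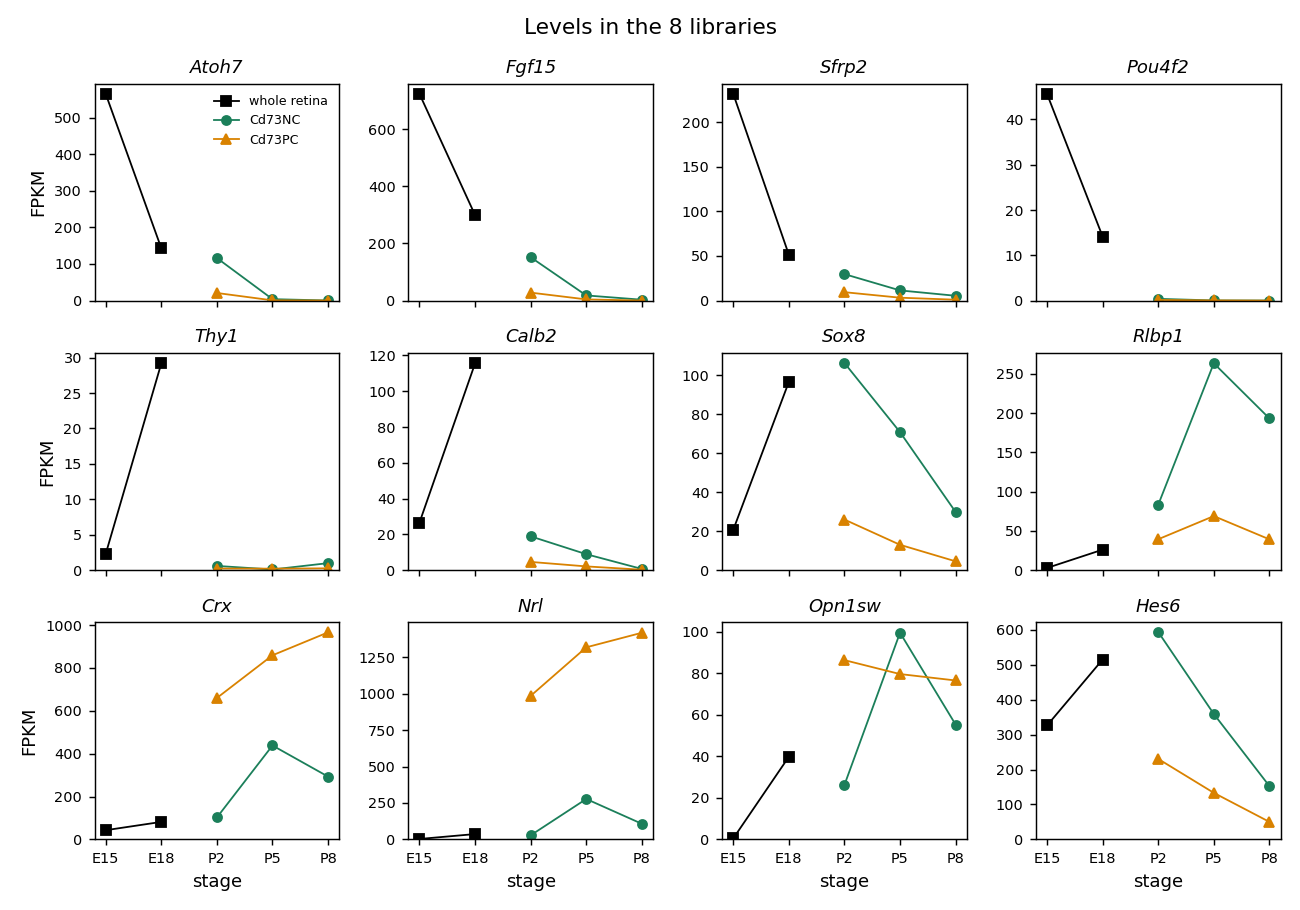
FPKM of 12 genes in the 8 libraries, by stage, on linear axes that start at 0, with black squares for whole retinas, green circles for Cd73NC and orange triangles for Cd73PC, 1 library a point. Atoh7, Fgf15, Sfrp2 and Pou4f2 are highest at E15, Thy1 and Calb2 at E18, and Crx and Nrl in Cd73PC at P8.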

How the data were processed

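Total RNA from retinas was selected for poly(A) RNA, per the methods of the study. The selected RNA was made into cDNA libraries and sequenced as 36-base single reads, per the labels without a stranded step. Per the submitters' processing notes, CASAVA 1.8.2, bcl2fastq 1.8.4, TopHat2 2.0.8b and Cufflinks 2.1.1 were used with build mm9. The authors deposited FPKM per gene, with bounds and a status, in 1 table per library, and read counts were not analysed here.

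Tables of the 2 ages were joined on gene symbol and locus. The 797 small RNA rows and 13 rows whose estimate failed at either age were left out, as were rows below 1 FPKM at both ages. Ratios were taken on FPKM + 1 and called past 1.5-fold, the threshold of the study. No test was run. Genes named are members of the gene lists, Atoh7 and Crx, the 15 widest gaps in each direction with bounds apart, and the 10 highest rows of each age. The members, lists and thresholds were chosen with earlier results of these data known. Of 568 listed symbols, 8 were matched by an older symbol and 4 were not found. Some symbols, such as Dll1, Hes6, Neurod1, Meis2 and Ebf3, stand in more than 1 list, so the counts of different lists overlap. A few members are not reported here. Start positions had 1 added. Alternatives were pseudocounts of 0.1 and none, FPKM of at least 5, no filter, other scalings, 2-fold, bounds apart, small RNAs kept, and rows of a symbol summed. Python 3.11.15, pandas 2.3.3 and numpy 2.4.6 were used, and the counting was tested on simulated data.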

Additional observations from a re-analysis of the deposited data

How the results depend on the processing

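No paired analysis was possible because each age has 1 library, and for the same reason no library could be left out in turn. Rows higher at E15 numbered 684 with no pseudocount. Requiring 5 FPKM left 571 rows higher at E18 and 296 higher at E15, and a threshold of 2-fold left 345 and 125. Under the other alternatives both counts stayed within 1.5 times 963 and 449. The share of called rows that were higher at E18 was 68.2%, and ranged from 62.2% with ratios centred on their median (857 and 520 rows) to 73.4% at 2-fold.

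Of 26 list medians, 20 kept their sign under every alternative run, and 10 of the 11 past 1.5-fold stayed past it, the exception being photoreceptor transcription factors. A pseudocount of 0.1 moved the median log2 ratio of rod and shared outer segment genes to 2.11 and that of muscle and keratin genes to 1.79. With 5 FPKM required, cone phototransduction genes moved to 2.18, microglia genes to 0.68 and lens genes to 0.25. Over genes with bounds apart, the medians were -1.27 for horizontal cell genes, 1.06 for astrocyte genes and 2.03 for muscle and keratin genes. In each of these the alternative itself changes which genes enter the median or how weak genes are weighted. All 31 genes named by the widest gaps or as markers kept their direction and stayed past 1.5-fold where an alternative gave a value, and 16 moved by over 1.5 times with a pseudocount of 0.1. The midpoint of the bounds in place of FPKM and failed rows taken as 0 were added after the data were seen. Precision is limited by the unknown depth, weak genes most of all.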

Other observations

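Some genes stood apart at a single embryonic age against all other libraries. The postnatal libraries are sorted fractions, in which RGC genes such as Sncg were weak. Sncg was at 295 FPKM at E18, 3.65 FPKM in P2 Cd73NC and 1.39 FPKM in P2 Cd73PC. A change with age and a lack of the cells after sorting cannot be told apart here. They were selected after their values were seen, as rows more than 4 times higher on FPKM in 1 embryonic library than in each of the other 7. A minimum level in that library was also required, and the weakest gene to pass was Mdfi at 3.44 FPKM. These were 4 genes at E18 and 11 at E15. At E18 they were Vsnl1 (10.6 FPKM against at most 2.54), Calb2 (116 against 26.6), Thy1 (29.2 against 2.28) and Cpne4, a calcium-binding copine (11.2 against 2.30). Vsnl1 encodes visinin-like protein 1, a neuronal calcium sensor. At E15 they included the activin antagonist Fst (3.47 FPKM against at most 0.837), Mdfi, an inhibitor of myogenic factors (3.44 against 0.830) and Onecut2 (7.90 against 1.89), next to Fam59b, Cntn2, Sst, Sfrp2, Igfbpl1, Fgf3, Gm6537 and 1700106J16Rik.

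The 797 small RNA rows were left out of the comparisons, other than in the alternative that kept them. They held 14.9% of the summed FPKM at E15 and 15.8% at E18, led at both ages by Mir5109 at 18898 and 18862 FPKM, and 655 of them at E15 and 640 at E18 were listed at 0.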
